A study of Mus musculus with 35 samples.

Results

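Leydig cells lie between the seminiferous tubules and make the testosterone of the testis. Luteinizing hormone acts on them through the receptor LHCGR, STAR carries cholesterol into their mitochondria, and a short chain of enzymes turns it into testosterone. Germ cells do not make this steroid, and transcripts of these genes in isolated germ cells are read here as a measure of RNA from interstitial cells. Whether part of these transcripts came from the germ cells themselves was not tested. Described here are 10 genes of the steroidogenic Leydig cell, chosen by name among the 24411 gene rows of the counted tables: Star, Cyp11a1, Cyp17a1, Hsd3b1, Hsd3b6, Hsd17b3, Insl3, Lhcgr, Klk1b21 and Klk1b27. All 10 had a row; they are given by name, but were chosen with earlier results of these data known.

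The libraries came from adult mice of mixed C57Bl/6J and SV129 background. Smg6-cKO mice carried floxed exon 9 of Smg6, the endonuclease of nonsense-mediated decay, on both alleles and a Cre transgene under the Ngn3 promoter, which acts in male germ cells and is not meant to act in Leydig cells; controls were littermates with floxed alleles but no Cre. Pachytene spermatocytes (Spc) and round spermatids (RS) were enriched by sedimentation through a BSA gradient, and poly(A) RNA was sequenced in 3 cKO and 3 control libraries of each. The design text gives a single mouse per sample while the methods give several testes. Chromatoid bodies (CB), the RNA-rich granules of round spermatids, were pulled down with anti-DDX4 from crosslinked cells pooled over several mice, and their total RNA was sequenced in 3 cKO and 4 control libraries.

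The 10 genes are protein-coding and spread over 7 chromosomes of GRCm38, as annotated in GENCODE vM21. Of the steroid pathway, Star lies on chromosome 8 from 25806555 to 25815982, Cyp11a1 on chromosome 9 from 58006411 to 58027023, Cyp17a1 on chromosome 19 from 46667165 to 46673172 and Hsd17b3 on chromosome 13 from 64058266 to 64089230. The isoform genes Hsd3b1 (98852194 to 98859794) and Hsd3b6 (98805504 to 98814443) are neighbours on chromosome 3. Insl3 lies on chromosome 8 from 71689214 to 71690575 and Lhcgr on chromosome 17 from 88716481 to 88791990. Klk1b21 (44102328 to 44106583) and Klk1b27 (44052290 to 44056712) belong to the tissue kallikrein cluster of chromosome 7.

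Promoters are shown for Insl3, which had the highest level of the 10 genes per length, and for both kallikreins, which are close paralogs. Each run gives the 200 bases from 250 to 51 bases before the gene's RefSeq start, 5′ to 3′ on the plus strand, from the RefSeq promoter table (GRCm38.p6), which matched 8 of the 10 genes. That start lies downstream of the GENCODE start given above for Insl3, upstream of it for Klk1b21 and at the same base for Klk1b27. Capitals mark CAAGGTC or its complement, the core letters of sites for NR5A1, a nuclear receptor of steroid-making cells.
Insl3, chr8:71689002-71689201: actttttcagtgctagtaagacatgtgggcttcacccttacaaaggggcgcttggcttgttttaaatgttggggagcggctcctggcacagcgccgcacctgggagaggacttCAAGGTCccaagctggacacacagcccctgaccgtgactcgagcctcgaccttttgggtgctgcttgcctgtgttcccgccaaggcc
Klk1b21, chr7:44102042-44102241: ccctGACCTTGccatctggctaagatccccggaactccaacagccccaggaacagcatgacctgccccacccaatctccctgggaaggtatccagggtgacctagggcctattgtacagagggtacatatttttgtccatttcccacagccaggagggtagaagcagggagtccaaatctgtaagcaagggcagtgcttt
Klk1b27, chr7:44052040-44052239: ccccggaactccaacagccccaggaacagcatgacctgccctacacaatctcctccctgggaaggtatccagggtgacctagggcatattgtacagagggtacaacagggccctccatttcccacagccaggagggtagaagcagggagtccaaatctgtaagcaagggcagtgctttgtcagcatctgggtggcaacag
Searched on both strands of the 250 bases before the RefSeq start, CAAGGTC was present for Insl3 and Klk1b21 among the 8 genes and in 3.32% of all 32851 promoters. The longer CAAGGTCA, which contains it, was present for Klk1b21 and in 1.33% of promoters. Among the other kallikreins Klk1 alone held either of these. The looser CAAGGNCA, found in 5.53% of promoters, was present for Klk1b21 and Klk1b27 among the 8 genes, and for Klk1, Klk1b1, Klk1b11, Klk1b16 and Klk1b24 among the other kallikreins. Over the aligned part of these 250 bases, Klk1b21 and Klk1b27 were identical at 94.6% of positions. Klk1b21 was closer to Klk1b24, at 97.7%.

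Libraries held 38129415 to 49940226 counts on genes and transposable elements in Spc and RS and 3965541 to 16699210 in CB. Levels are CPM, gene counts scaled to a common library total with TMM factors, over the 12 Spc and RS libraries together and over the 7 CB libraries apart, so levels are not compared between CB and cells. The TMM factors of the control RS libraries (0.716 to 0.767) were below those of the other Spc and RS libraries (1.00 to 1.18). Smg6 itself was at 182 to 189 CPM in cKO and 109 to 172 in control Spc, and at 189 to 203 and 143 to 235 in RS, since counts over the whole gene do not show the loss of 1 exon. The summed level of 10 late spermatid genes was 30785 to 40812 CPM in control RS, 3778 to 7771 in control Spc, 2045 to 2096 in cKO RS and 452 to 1468 in cKO Spc. The fraction labelled RS thus held fewer of these transcripts in the cKO than control Spc did. In bulk RNA, fewer or more cells of a type cannot be told apart from less or more RNA per cell.

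In control Spc the 10 genes were all detected, at levels that varied together between libraries. Their summed level was 134, 451 and 362 CPM in control libraries 1, 2 and 3, so that library 1 was the lowest. Library 1 was also lowest for each of the 10 genes, by 2.50 to 5.22 times against library 2. Per kilobase of exon, Insl3, the peptide hormone of testis descent, stood first with 101 ± 61.0 CPM per kb (mean ± SD, n = 3), followed by Cyp17a1 with 36.4 ± 17.4 and Hsd3b6 with 22.0 ± 14.0. Klk1b21 (10.98), Cyp11a1 (9.97), Hsd17b3 (6.78), Klk1b27 (6.75), Star (6.33) and Hsd3b1 (6.12) followed, and neighbours down to here did not differ beyond their spread. Lhcgr, the receptor, was last with 0.304 ± 0.189 CPM per kb, below the rest by more than its spread, over a long annotated exon length of 7645 bases.

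**Figure D1:**
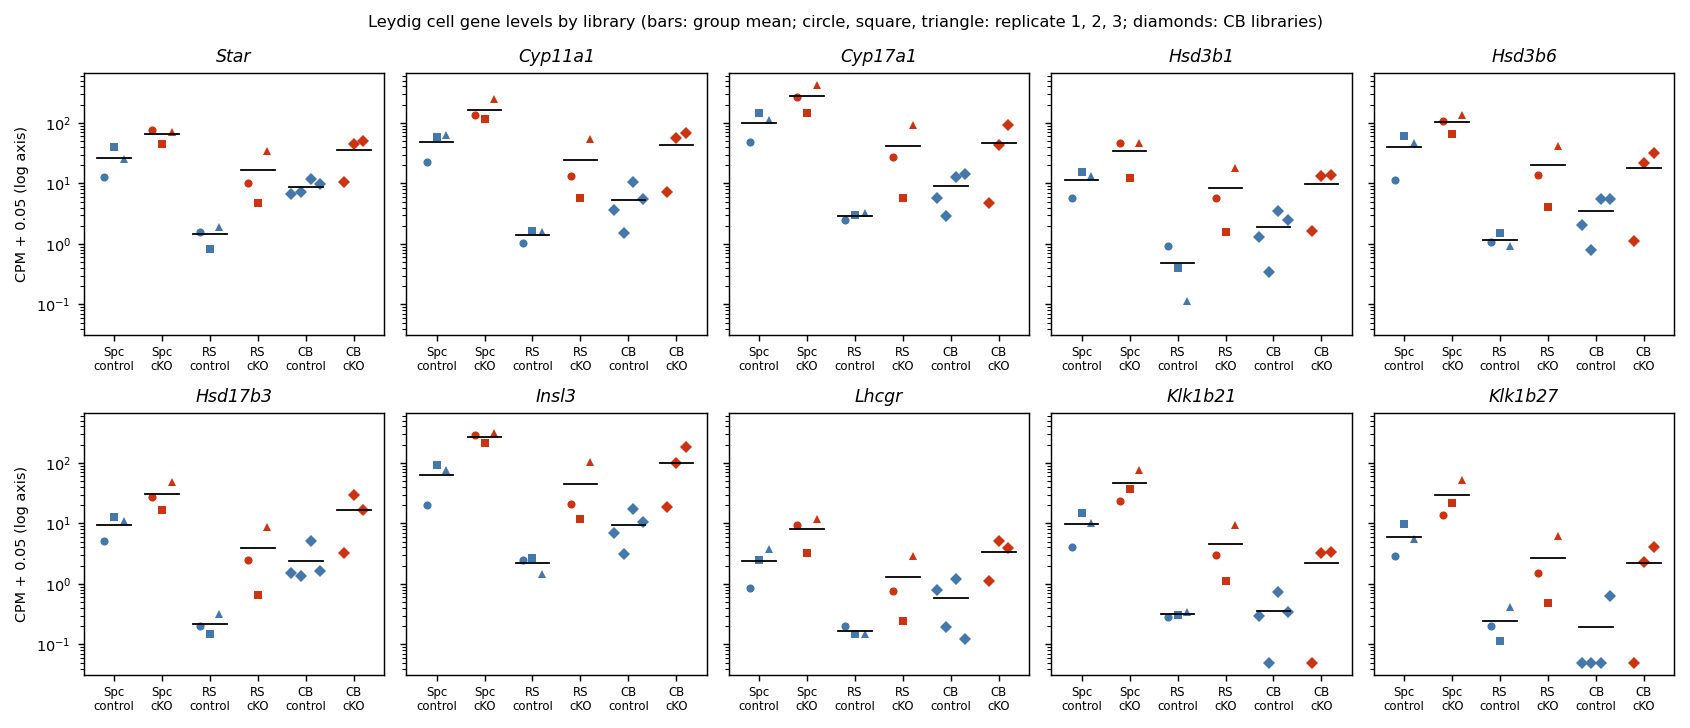
Level of each of the 10 genes in every library, as CPM plus 0.05 on a log axis, for control (blue) and cKO (red) Spc, RS and CB; bars are group means, and symbols show the replicate number in Spc and RS. All 10 genes sat lower in control RS than in control Spc, with no overlap, and higher in cKO RS than in control RS.

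Round spermatids of control mice held far less of these transcripts than control Spc. Summed over the 10 genes, control RS had 10.03, 10.25 and 9.97 CPM, against the 134 to 451 CPM of control Spc. Insl3 was at 20.2, 93.3 and 74.9 CPM in control Spc and at 2.45, 2.61 and 1.42 in control RS. Cyp17a1, the hydroxylase and lyase that leads to androgens, was at 48.8, 144 and 109.8 CPM in control Spc and at 2.45, 2.97 and 3.19 in control RS. The lowest Spc library lay above the highest RS library for all 10 genes, as it did for 38.0% of the genes tested. On the log2 scale Insl3 fell by 4.98 (SE 0.62, adjusted p = 0.00033, edgeR quasi-likelihood test) and Cyp17a1 fell by 5.27 (SE 0.43, adjusted p = 9.7e-05).

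Each of the 10 genes had a negative value from control Spc to control RS. Star, the cholesterol carrier, fell by 4.36 on the log2 scale (SE 0.51), and Hsd17b3, which makes testosterone from androstenedione, fell by 5.91 (SE 0.50). Cyp11a1, which cleaves the side chain of cholesterol, fell by 5.26 (SE 0.46), and the isomerases Hsd3b1 and Hsd3b6 fell by 4.82 (SE 0.69) and 5.25 (SE 0.66). Lhcgr fell by 4.42 (SE 0.67), Klk1b21 by 5.29 (SE 0.55) and Klk1b27 by 5.09 (SE 0.66). The counts in control RS were small, 303 to 336 over the 10 genes together, and Hsd17b3 rested on 5, 3 and 8 counts there, Klk1b21 on 8, 8 and 9, Lhcgr on 5, 3 and 3, Klk1b27 on 5, 2 and 11 and Hsd3b1 on 29, 11 and 2. These 5 genes did not reach the minimum of 10 counts in 3 libraries in RS and were tested through Spc, where they were high, so their passing is no support for a difference. The other 5 genes (Star, Cyp11a1, Cyp17a1, Hsd3b6 and Insl3) met the minimum in RS too, and 5 of 5 passed an adjusted p of 0.05 in the lower direction and were past 1.5 on the log2 scale. Of all 17046 genes tested, 39.7% passed as lower, 36.2% as higher, and 17.0% as lower and past 1.5. The median over all genes was -0.08. With library size in place of TMM the median of all genes moved to -0.54, and the 10 values then ran from -6.38 to -4.83; of all passing genes 32.2% were then higher, against 47.7% with TMM.

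In Spc 5 of the 10 genes passed as higher in the cKO, and all 10 values were positive, from 1.21 to 2.17 on the log2 scale. Their summed level was 1003, 677 and 1413 CPM in cKO libraries 1, 2 and 3 against 134, 451 and 362 in the controls, with no overlap. Insl3 was at 292, 215 and 307 CPM in cKO Spc and at 20.2, 93.3 and 74.9 in control Spc, and rose by 2.01 on the log2 scale (SE 0.49, adjusted p = 0.025). Klk1b21 was at 23.4, 37.1 and 76.7 CPM against 4.05, 14.6 and 10.1, and rose by 2.16 (SE 0.57, adjusted p = 0.030), and Klk1b27, a serine protease of the same family, changed by 2.17 (SE 0.60, adjusted p = 0.035). Both kallikreins were highest in cKO library 3 (76.7 and 51.7 CPM) and Insl3 was about equally high in libraries 1 and 3. Cyp11a1 rose by 1.69 (SE 0.43, adjusted p = 0.029), from 22.2, 58.8 and 62.7 CPM to 138, 114 and 244. Hsd17b3 rose by 1.61 (SE 0.46, adjusted p = 0.040), from 4.98, 12.5 and 10.8 CPM to 27.8, 16.3 and 48.6.

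The other 5 genes did not pass in Spc, though their values lay in the same direction. Star was at 77.4, 45.3 and 71.9 CPM in the cKO and at 12.7, 40.5 and 24.9 in the control, with a value of 1.21 (SE 0.40, adjusted p = 0.058). Cyp17a1 was at 269.6, 146 and 422 CPM against 48.8, 144 and 109.8 (1.36, SE 0.47, adjusted p = 0.067), so that cKO library 2 and control library 2 nearly met. Hsd3b1 (1.51, SE 0.54, adjusted p = 0.076), Hsd3b6 (1.26, SE 0.54, adjusted p = 0.12) and Lhcgr (1.69, SE 0.62, adjusted p = 0.081) were the others, and Hsd3b1 and Lhcgr overlapped between the groups. So 5 of 10 genes passed as higher and were past 1.5 on the log2 scale and 0 as lower; of all 17321 genes tested, 14.0% passed as higher, 14.1% passed as lower and 3.41% passed as higher and were past 1.5. The groups did not overlap for 8 of 10 genes, all higher in the cKO, as for 30.7% of genes tested. The median of the 10 was 1.65, against -0.01 for all genes.

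Single libraries decided how many of the 10 genes passed in Spc. Without cKO library 3 or control library 3 the count was 0, without cKO library 1 it was 2, without control library 1 it was 3 and without cKO library 2 it was 9. DESeq2 passed 10 of 10. All 10 log2 fold changes stayed positive with each library left out, between 0.84 and 2.69.

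**Figure D2:**
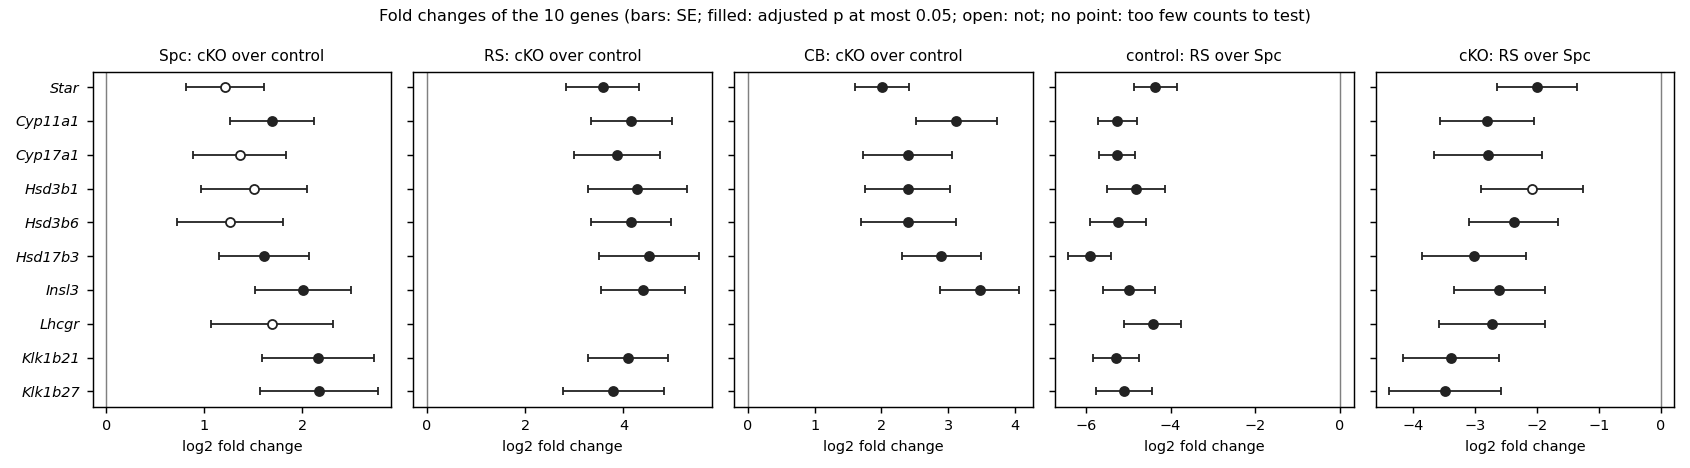
Log2 fold change of each gene (points) with its SE (bars) in the 5 comparisons of edgeR; filled points passed at 0.05 after adjustment, and Lhcgr, Klk1b21 and Klk1b27 are missing where counts were too few to test. Points lay right of 0 in all 3 comparisons of cKO with control and left of 0 in both comparisons of RS with Spc.

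In RS the cKO libraries lay above the controls and spread widely. Summed over the 10 genes, cKO libraries 1, 2 and 3 had 98.2, 35.5 and 371 CPM, against the 9.97 to 10.25 CPM of the control libraries. Insl3 was at 20.6, 11.6 and 104 CPM in cKO RS and at 2.45, 2.61 and 1.42 in control RS, and rose by 4.40 on the log2 scale (SE 0.85, adjusted p = 0.0019). Cyp17a1 was at 26.9, 5.63 and 91.6 CPM against 2.45, 2.97 and 3.19, and rose by 3.87 (SE 0.88, adjusted p = 0.0045). In each case cKO library 3 was the highest and cKO library 2 the lowest, and still above the controls. That order, 3 above 1 above 2, held for all 10 genes, and library 3 exceeded library 2 by 7.30 to 16.3 times. For the sum, library 3 exceeded library 2 by 10.5 times, while the control libraries were nearly equal.

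Of the other genes of the pathway in RS, Star was at 10.1, 4.75 and 34.7 CPM in the cKO and at 1.55, 0.774 and 1.84 in the control, and rose by 3.58 (SE 0.74, adjusted p = 0.0027). Cyp11a1 was at 13.2, 5.61 and 53.6 CPM against 0.985, 1.58 and 1.55, and rose by 4.16 (SE 0.82, adjusted p = 0.0021). Of the isomerases, which make progesterone from pregnenolone, Hsd3b6 rose by 4.16 (SE 0.81, adjusted p = 0.0020).

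Low counts in control RS left some genes with little evidence each. Hsd3b1, the other isomerase, had 275, 70 and 911 counts in cKO RS and 29, 11 and 2 in control RS (4.28, SE 1.01, adjusted p = 0.0052). Hsd17b3 had 117, 28 and 439 counts in cKO RS and 5, 3 and 8 in control RS (4.52, SE 1.01, adjusted p = 0.0039). Klk1b21 had 139, 48 and 481 counts against 8, 8 and 9 (4.09, SE 0.82, adjusted p = 0.0024). Klk1b27 had 69, 20 and 307 counts against 5, 2 and 11 (3.79, SE 1.03, adjusted p = 0.010). These 4 genes did not meet the minimum of 10 counts in 3 libraries in the controls and were tested through the cKO, where they were high, so their passing is no support for a difference. Lhcgr, with 34, 9 and 142 counts in the cKO and 5, 3 and 3 in the control, did not reach that minimum. Without a minimum 10 of 10 genes passed as higher, with fitted values that depend on the prior count for the rarest. Groups did not overlap for 10 of 10 genes, as for 40.0% of genes tested.

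With the minimum, 9 genes were tested in RS, 4 of them through the cKO alone; of the 5 that met the minimum in both groups, 5 passed as higher and were past 1.5 on the log2 scale. Of all 17492 genes tested, 38.4% passed as higher, 34.3% passed as lower and 14.8% passed as higher and were past 1.5. Passing alone was thus common in RS, and the minimum had removed the gene with the fewest counts. The 9 values ran from 3.58 to 4.52 and the median of all genes was 0.11. Leaving out cKO library 3 lowered the range to between 2.36 and 3.12 over the 7 genes still tested. The 5 genes that met the minimum in both groups still passed. Hsd3b1 and Klk1b27 passed too, but did not meet the minimum in the controls, so their passing is no support. With any single cKO library left out, Hsd17b3 and Klk1b21 fell under the minimum. With library size in place of TMM the median of all genes moved to 0.73 and the 9 values to between 4.21 and 5.14, and 76% of all passing genes were then higher, against 52.8% with TMM.

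Within the cKO 9 of the 10 genes passed as lower in RS than in Spc, a count that fell to 0 without cKO RS library 1. Insl3 fell from 292, 215 and 307 CPM in cKO Spc to 20.6, 11.6 and 104 in cKO RS, by 2.61 on the log2 scale (SE 0.74, adjusted p = 0.023). Cyp11a1 fell from 138, 114 and 244 CPM to 13.2, 5.61 and 53.6, by 2.81 (SE 0.76, adjusted p = 0.020). The kallikreins had the largest values, with Klk1b27 at -3.49 (SE 0.90, adjusted p = 0.016) and Klk1b21 at -3.39 (SE 0.78, adjusted p = 0.010). Star had the smallest, -2.0 (SE 0.64, adjusted p = 0.036). Hsd3b1, at -2.08 (SE 0.83, adjusted p = 0.074), did not pass, and its cKO Spc library 2 with 12.1 CPM lay below cKO RS library 3 with 17.9. In all, 9 of 10 genes passed as lower and were past 1.5 (Lhcgr, with 34, 9 and 142 counts in RS, through Spc alone), beside 26.4% and 3.79% of all 17709 genes, and 18.9% of all genes passed as higher. Without cKO Spc library 1 the count passing was 2 and without cKO Spc library 3 it was 5. The 10 values stayed negative with each library left out, between -4.96 and -1.56. With library size 55% of all passing genes were higher, against 41.7% with TMM, and 8 of the 10 genes passed as lower.

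Whether the genotype effect differed between RS and Spc was tested as an interaction. All 10 values were positive, from 1.52 for Klk1b27 (SE 1.36, adjusted p = 0.38) to 2.80 for Hsd17b3 (SE 1.26, adjusted p = 0.092), with Hsd3b6 (2.79, SE 1.09) nearest to passing at an adjusted p of 0.058. By edgeR 0 of 10 genes passed, and 4 of 10 had an unadjusted p under 0.05, as did 52.2% of all 18171 genes. Of all genes, 19.0% passed as higher and 24.1% as lower. DESeq2 passed 4 of the 10, and library size in place of TMM passed 7, while it turned the share of higher calls among all passing genes from 44.2% to 93.7%. Without cKO RS library 2 the count was 7 and without control Spc library 1 it was 4. A difference between the effects in RS and Spc was therefore called or not depending on the tool, the scaling and the libraries.

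**Figure D3:**
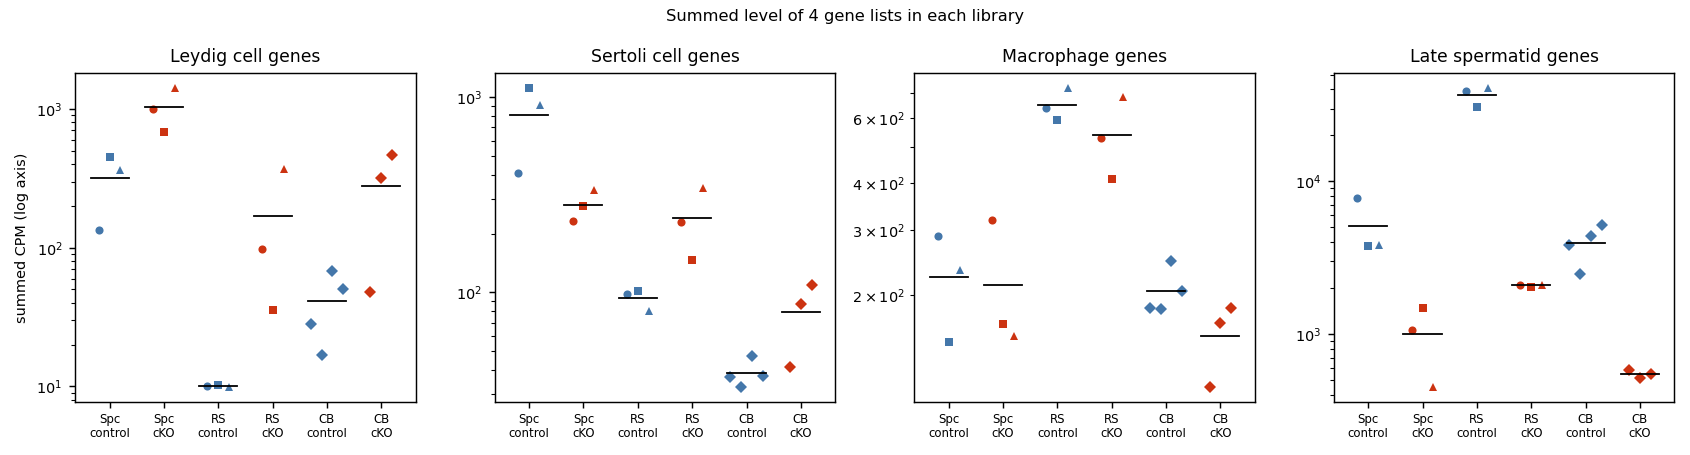
Summed CPM on a log axis of the 10 Leydig cell genes and of 12 Sertoli cell, 14 macrophage and 10 late spermatid genes in each library; bars are group means and colours as before. Leydig cell genes were higher in cKO than in control Spc while Sertoli cell genes were lower, and both were higher in cKO RS than in control RS.

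Genes of other cell types moved beside the Leydig cell genes, and their part in these results was not tested. Their counts are to be read against all genes tested, of which 14.0% passed as higher and 14.1% as lower in Spc and 38.4% and 34.3% in RS. Sertoli cell genes, which mark the somatic cells inside the tubules, summed to 409, 1113 and 909.8 CPM in control Spc and 232 to 335 in cKO Spc, and 0 of 12 passed as higher and 10 as lower. Within control Spc, library 1 was thus the lowest for both cell types, and it had the highest late spermatid sum of that group (7771 CPM). In RS, Sertoli genes summed to 80.4 to 102 CPM in control and 147 to 341 in cKO libraries, with 10 of 11 tested genes passing as higher, 1 of them through the cKO alone. Among 14 macrophage genes, 11 passed as higher and 2 as lower in Spc, and 12 and 1 in RS; in each fraction 1 of the higher ones was tested through the cKO alone. Their sum overlapped between the genotypes, at 150.2 to 289 CPM in control and 155 to 319 in cKO Spc and at 592 to 722 in control and 410.2 to 681 in cKO RS. Aif1 alone was at 539.7 ± 63.0 CPM in control and 84.6 ± 18.6 in cKO RS (-2.66, SE 0.16, adjusted p = 3.2e-06).

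From Spc to RS, 36.2% of all genes passed as higher and 39.7% as lower in controls, and 18.9% and 26.4% in the cKO. In controls 12 of 12 Sertoli genes passed as lower, 5 of 14 macrophage genes as higher and 1 as lower, and 4 of 5 tested erythroid genes as higher and 1 as lower, beside the 5 of 5 Leydig cell genes that met the count minimum in both fractions and passed as lower. Of these, 2 Sertoli and 3 of the higher erythroid genes were tested through a single fraction. In the cKO the Sertoli list had 2 of 12 passing as higher and 0 as lower, the macrophage list 12 of 14 as higher and 0 as lower and the erythroid list 5 of 5 as higher, 4 of them through RS alone, beside 8 of the 9 Leydig cell genes that met the minimum in both fractions lower. By genotype, 4 of 5 erythroid genes passed as higher and 0 as lower in RS, and 0 of 4 and 1 in Spc. The erythroid sum was 67.7 to 249.6 CPM in cKO RS and 1.58 to 3.48 in cKO Spc. Hba-a1 and Hba-a2 had the same interaction value (2.14, SE 0.76), so these 2 erythroid genes may not be separate evidence. Peritubular myoid genes passed in RS by genotype for 2 of 7 as higher and 2 as lower, and endothelial genes for 0 of 6 as higher and 2 as lower. Of germ cell lists, spermatocyte genes passed for 1 of 10 as higher and 1 as lower in Spc and 6 and 3 in RS, and spermatid genes for 0 as higher and 3 as lower in Spc and 0 and 10 in RS. No Sertoli or macrophage gene was at 0 in any Spc or RS library.

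Chromatoid body libraries also held Leydig cell transcripts, at higher levels in the cKO as a group. Summed over the 10 genes, the cKO libraries MKO2, MKO3 and MKO4 had 47.7, 319 and 468 CPM and the controls MCTRL1, MVHCTRL2, MVHCTRL3 and MCTRL5 had 28.4, 17.0, 68.4 and 50.3. MKO2 lay within the range of the controls and the other cKO libraries well above it. Insl3 was at 18.4, 101 and 183 CPM in the cKO and at 6.78, 3.10, 17.3 and 10.4 in the controls, and rose by 3.47 (SE 0.59, adjusted p = 0.00078). It was the 1 gene of 10 whose groups did not overlap, as for 18.9% of genes tested. Cyp11a1 was at 7.11, 55.5 and 69.2 CPM against 3.58, 1.47, 10.7 and 5.42, and rose by 3.12 (SE 0.61, adjusted p = 0.0018).

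The other testable genes passed in CB with MKO2 among the controls. Cyp17a1 was at 4.74, 43.1 and 91.4 CPM in the cKO and at 5.67, 2.80, 12.8 and 14.4 in the controls (2.39, SE 0.66, adjusted p = 0.012). Star was at 10.5, 44.0 and 50.7 CPM against 6.66, 7.08, 11.9 and 9.61 (2.01, SE 0.40, adjusted p = 0.0019). Hsd17b3 rose by 2.89 (SE 0.59, adjusted p = 0.0024), Hsd3b6 by 2.40 (SE 0.71, adjusted p = 0.018) and Hsd3b1 by 2.39 (SE 0.64, adjusted p = 0.011). Among the cKO libraries Hsd17b3 was highest in MKO3, while Insl3, Cyp17a1 and Cyp11a1 were highest in MKO4.

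Counts in CB were low, and 3 of the 10 genes were not tested there. Klk1b27 had 0, 5 and 23 counts in the cKO and 0, 0, 0 and 8 in the controls, where a count of 0 allows up to 0.370 CPM in MCTRL1 and up to 0.790 in MKO2. Klk1b21 had 0, 7 and 19 counts against 2, 0, 3 and 4, and Lhcgr 4, 11 and 22 against 6, 1, 5 and 1. Of the 7 genes tested, 7 passed as higher and were past 1.5, beside 18.1% and 5.69% of all 14051 genes, and 18.4% of all genes passed as lower. Of all passing genes 49.6% were higher, and 38.1% with library size in place of TMM. Without MKO4 the count was 4, by DESeq2 it was 5, and with the controls MCTRL1 and MCTRL5 alone, a choice made after seeing the data, it was 5. In CB 10 of 10 late spermatid genes passed as lower, 2 of 6 Sertoli genes as higher, and 3 of 7 macrophage genes as higher, 1 of them through a single genotype, and 1 as lower.

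Shares of some of the 10 genes varied little and those of others widely. Over the 12 Spc and RS libraries the summed level spanned a factor of 142, while Cyp11a1 made up 9.82% to 17.3% of the counts of the 10 genes in every library and Hsd3b6 8.59% to 14.2%. Cyp17a1 took 15.9% to 36.4% and Insl3 14.2% to 32.6%. Those are the shares of 4 genes with distinct roles, from side chain cleavage to a secreted peptide, and together they made up most of the counts in each Spc and RS library. Shares of the rarer genes varied more: Hsd3b1 made up 0.660% to 8.63%, Klk1b27 0.629% to 3.66%, Hsd17b3 0.943% to 3.72% and Lhcgr 0.470% to 1.49%. The extremes of Hsd3b1 were both in control RS, where it had 29, 11 and 2 counts.

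Some shares did move with genotype or fraction, as a description without a test. Insl3 made up 15.1% to 20.7% of the 10 genes' counts in control Spc and 21.7% to 31.7% in cKO Spc, without overlap. Star made up 5.09% to 9.46% in Spc libraries and 7.55% to 18.5% in RS libraries. In CB the mix was another: Star took 10.8% to 41.7%, Hsd17b3 3.16% to 9.21% against 0.943% to 3.72% in Spc and RS, and Klk1b21 at most 1.01% against at least 2.34%. The CB libraries were made from total RNA and the others from poly(A) RNA, and a CB library held 115 to 2631 counts on the 10 genes, so that fraction, method and counting error cannot be told apart there.

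**Figure D4:**
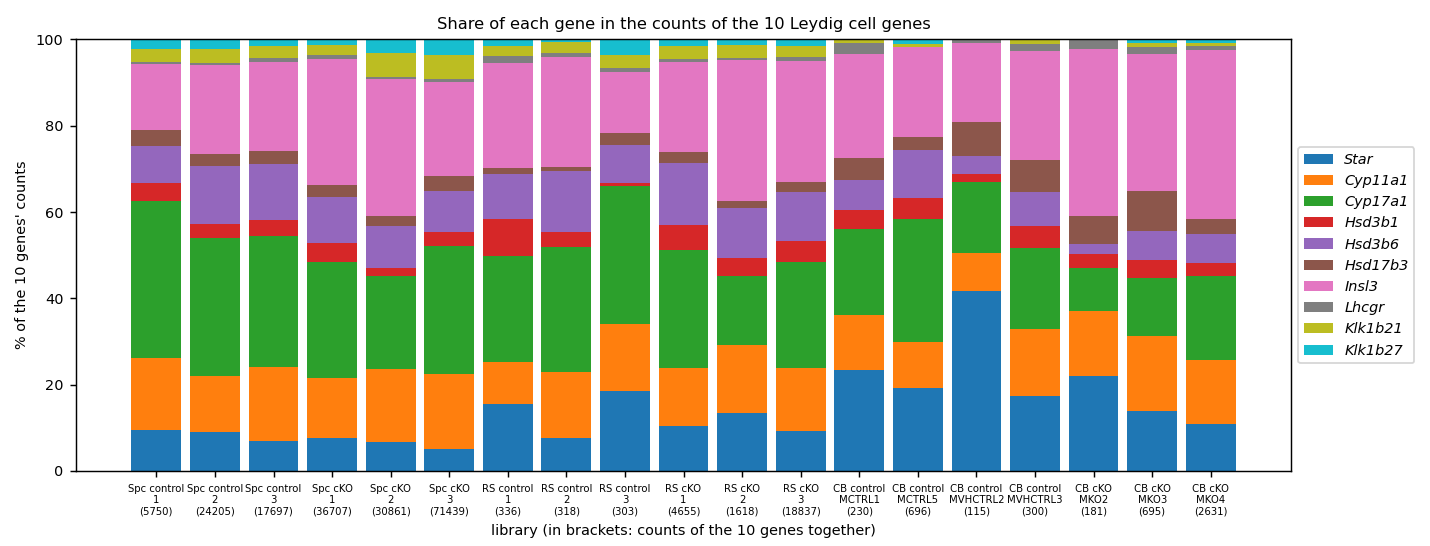
Share of each gene (colours) in the counts of the 10 genes in each library, with the number of those counts in brackets. In Spc and RS libraries Cyp17a1 took 15.9% to 36.4% and Star 5.09% to 18.5%; in CB libraries Star took 10.8% to 41.7%.

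Replicates with the same number in Spc and RS did not share a ratio. Spc exceeded RS in the summed level by 13.4, 44.0 and 36.3 times for control numbers 1, 2 and 3, and by 10.2, 19.1 and 3.81 times for cKO numbers 1, 2 and 3. Within the cKO, number 3 was highest and number 2 lowest in both fractions. The labels do not say that equal numbers share a mouse.

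Of 14 other genes known from Leydig cells, 13 were tested in RS by genotype, and 11 passed as higher and 2 as lower, where 38.4% and 34.3% of all genes did. Prlr, the prolactin receptor, was at 6.98 ± 6.46 CPM in cKO and 0.443 ± 0.119 in control RS (3.98, SE 0.80, adjusted p = 0.0024). Fabp3, a fatty acid binding protein, rose by 3.92 (SE 0.80, adjusted p = 0.0025), Ephx1, an epoxide hydrolase, by 3.80 (SE 0.73, adjusted p = 0.0018), and Ptgds, a prostaglandin synthase, by 3.76 (SE 0.88, adjusted p = 0.0050). In Spc 4 of 14 passed as higher and 2 as lower, beside 14.0% and 14.1% of all genes; the lower ones were Gata6 and Inha, which Sertoli cells also express. In CB 11 of 13 passed as higher and 0 as lower, beside 18.1% and 18.4%. From Spc to RS 11 of 14 passed as lower and 2 as higher in the control, beside 39.7% and 36.2% of all genes. Of these 11, 10 met the count minimum in both fractions. In the cKO 6 passed as lower and 2 as higher, beside 26.4% and 18.9%.

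Of 15 partners of steroid synthesis, genes of the pathway that other cells also use, 9 passed as higher and 3 as lower in RS by genotype, beside 38.4% and 34.3% of all genes. In Spc 4 of 14 passed as higher and 1 as lower, beside 14.0% and 14.1%, and in CB 5 of 13 and 3, beside 18.1% and 18.4%. Of the 10 that met the count minimum in both CB groups, 4 passed as higher and 2 as lower. In RS, Hsd11b1, which interconverts active and inactive glucocorticoids (3.25, SE 0.57, adjusted p = 0.0012), and Tspo, a mitochondrial outer membrane protein (2.99, SE 0.52, adjusted p = 0.0011), had 1, 1 and 3 and 7, 10 and 12 counts in the controls and were tested through the cKO, where they were high. Cyb5a, which aids the lyase step of CYP17A1, was at 22.6 ± 4.51 CPM in cKO and 3.85 ± 0.318 in control RS (2.57, SE 0.18, adjusted p = 6.6e-06). Lipe, the hormone-sensitive lipase, went the other way, from 551 ± 74.2 to 83.2 ± 2.48 CPM (-2.72, SE 0.10, adjusted p = 3.8e-07). In control mice Lipe was higher in RS than in Spc (2.28, SE 0.27, adjusted p = 0.00030), the reverse of the 10 genes.

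Of 11 genes of cholesterol synthesis, 2 passed as higher and 5 as lower in RS, beside 38.4% and 34.3% of all genes, 2 and 1 in Spc, beside 14.0% and 14.1%, and 1 and 2 in CB, beside 18.1% and 18.4%. Cyp51, the lanosterol demethylase, was at 46.4 ± 8.71 CPM in cKO and 134 ± 3.95 in control RS (-1.51, SE 0.13, adjusted p = 2.0e-05), and Fdps fell by 1.21 (SE 0.11, adjusted p = 3.4e-05). Lss, which closes the sterol rings, rose by 1.20 (SE 0.12, adjusted p = 4.7e-05). The summed level of the list was 982 to 1038 CPM in cKO and 1579 to 1698 in control RS, the reverse of the Leydig cell sum. With library size in place of TMM, 6 of these genes passed as higher and 3 as lower in RS, so the balance of this list depends on the scaling.

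Of 4 hormone receptors of the testis, 1 passed as higher and 1 as lower in Spc, 1 and 1 of 3 tested in RS, and 2 and 0 of 3 tested in CB, too few genes to set against the shares of all genes (14.0% and 14.1% in Spc, 38.4% and 34.3% in RS, 18.1% and 18.4% in CB). The lower one in Spc was Fshr, the receptor of Sertoli cells for follicle-stimulating hormone (-2.31, SE 0.36, adjusted p = 0.0067). Rxfp2, the receptor of INSL3, was at 18.2 ± 1.39 CPM in cKO and 23.6 ± 1.52 in control RS, a log2 difference of -0.36 (SE 0.11, adjusted p = 0.017), which turned to 0.25 (adjusted p = 0.083) with library size in place of TMM.

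**Figure D5:**
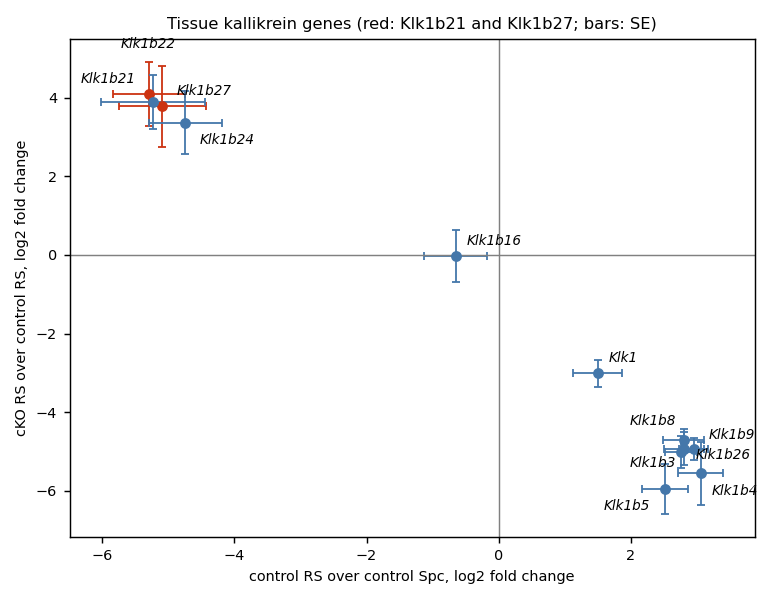
Log2 fold change of cKO over control RS (vertical axis) against that of control RS over control Spc (horizontal axis) for the tested tissue kallikreins, with SE bars; both axes share the control RS libraries. Klk1b21, Klk1b27, Klk1b22 and Klk1b24 sat at the upper left and 7 others at the lower right.

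Other tissue kallikreins passed in both directions in RS by genotype, and most had too few counts in 1 of the groups to be tested on that group alone. Beside Klk1b21 and Klk1b27, 2 of 10 tested kallikreins passed as higher and 7 as lower, beside 38.4% and 34.3% of all genes, but 7 of the 10 did not meet the count minimum in their lower group, so that passing is no support for these. The 3 that met it in both groups, Klk1, Klk1b8 and Klk1b9, passed as lower. Klk1b22 (3.90, SE 0.69, adjusted p = 0.0012) and Klk1b24 (3.37, SE 0.80, adjusted p = 0.0055) were the higher ones, with 2, 1 and 3 and 8, 9 and 14 counts in control RS. Klk1b5 was at 2, 0 and 5 counts in cKO and 150, 87 and 71 in control RS and fell by 5.95 (SE 0.64, adjusted p = 7.4e-05). Klk1b4, at 0, 0 and 5 counts in cKO RS, fell by 5.56 (SE 0.79, adjusted p = 0.00038), Klk1b26, at 18, 4 and 11, by 5.01 (SE 0.41, adjusted p = 1.8e-05) and Klk1b9 by 4.95 (SE 0.28, adjusted p = 2.5e-06). From Spc to RS in control mice 7 of 10 passed as higher and 2 as lower, beside 36.2% and 39.7% of all genes, the latter 2 being Klk1b22 and Klk1b24; of the 6 that met the minimum in both fractions, 6 passed as higher. A comparison of these axes shares the control RS libraries.

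These paralogs are alike in sequence, and reads could be divided between them. Of 797 stretches of 75 bases in Klk1b21 transcripts, the length of a read, 12.7% occurred in another of these kallikreins, 11.8% in Klk1b24, 4.89% in Klk1b27 and 1.0% each in Klk1 and Klk1b5. For Klk1b27 the share was 5.4% of 815 stretches, most of it with Klk1b21 and Klk1b24. Levels of Klk1b21 and Klk1b27 are therefore uncertain to that extent. For Hsd3b6 the share with other genes of its family was 7.93%, and Hsd3b1 had no stretch in common with them.

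Other genes of the Hsd3b family were low. Hsd3b4 was at 0.144 ± 0.179 CPM in cKO and 1.49 ± 0.201 in control RS (-3.36, SE 0.69, adjusted p = 0.0026); with 2, 16 and 2 counts in the cKO it was tested through the controls alone. Hsd3b7, which acts in bile acid synthesis, was at 2.57 ± 0.349 CPM against 0.768 ± 0.0737 and rose by 1.75 (SE 0.25, adjusted p = 0.00038). Of 5 genes with a row, 2 were tested in Spc and 0 of them passed.

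Genes whose level followed the 10 most closely were sought over the 12 Spc and RS libraries, by Pearson's correlation of log2(CPM + 1) with the mean of the 10 genes. Fabp3 and Ephx1 came first (r = 0.997 each), followed by E030003E18Rik (0.996), Glb1l2 (0.995), Prlr (0.994), Akr1cl (0.993), Ptgds (0.993) and Agt (0.993), out of 14976 genes with a mean of at least 1 CPM. These libraries share the contrast of fraction and genotype, so the values describe that pattern and carry no test. Fabp3 was at 9.32, 34.1 and 33.0 CPM in control Spc, 101, 57.2 and 123.4 in cKO Spc, 1.04, 1.10 and 1.28 in control RS and 10.4, 3.73 and 37.1 in cKO RS. The 10 genes themselves, each part of that mean, had r between 0.957 for Lhcgr and 0.996 for Cyp11a1. Over the 7 CB libraries, against the mean of the 7 genes tested there, Itih5 (0.996), Agt (0.995), Pdxk (0.995), Gstm1 (0.995) and Aldh1a1 (0.994) came first of 15131 genes. Agt, the angiotensin precursor, was the 1 gene in both lists, at 9.22, 83.4 and 165 CPM in the cKO and 6.29, 2.95, 18.5 and 13.2 in the control CB libraries.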

How the data were processed

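Per the submitters' processing notes, the authors used cutadapt 2.8, STAR 2.7.1a (GRCm38) and featureCounts 2.0.1; the study's methods name other releases of STAR and featureCounts, and TEtranscripts, set to reverse strand, for the table of genes and elements. The deposited counts are whole numbers for 24411 genes, named by UCSC symbol, and 1146 element subfamilies. The authors' transcript tables hold expected counts, which need not be whole since featureCounts shared reads among features; they were rounded, summed per gene and used as an alternative. Groups came from the labels; CB columns carry numbers other than the sample titles, so they were assigned to a genotype only. Small RNA libraries were not used. Replicates of a group differed by more than sampling noise (chi-square per degree of freedom from 8.94 to 78.0), and the p-values measure the spread between these libraries.

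Genes needed 10 counts in at least 3 libraries of a comparison and were tested with edgeR 4.0.16 (TMM, quasi-likelihood, two-sided, Benjamini-Hochberg over all genes) in R 4.3.3. A gene passed at an adjusted p of at most 0.05; a size of 1.5 on the log2 scale was counted too. Tested on simulated data with 200 genes changed by 2 on the log2 scale, 81.5% of changed genes passed in Spc (17140 genes), 88% in RS (17309), 89% in CB (13650) and 60% for the interaction (17940). From Spc to RS 88% passed in controls and 82.5% in the cKO. Unchanged genes made up 2.76% to 8.33% of the genes that passed, with the highest share in the cKO from Spc to RS. The 10 genes and the 14 lists beside them (steroid partners, cholesterol synthesis, other Leydig genes, hormone receptors, Hsd3b and Klk1 families, macrophage, Sertoli, peritubular myoid, endothelial, erythroid, spermatocyte, spermatid and late spermatid genes) were chosen with earlier results of these data known. From each of the first 6 lists at most 4 genes are named, those with the largest change among genes passing in RS; further names were chosen after their values were seen, and 2 genes that the rule names are not reported here. The 8 and 5 genes most alike were named by rank. DESeq2 1.42.0, other scalings, no minimum, elements included, transcript sums, a replicate block (in CB by the numbers in the column names, added after seeing the data) and each library left out were alternatives. Intervals and limits of a count of 0 (3 counts) cover counting error only.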

Additional observations from a re-analysis of the deposited data

Results flagged for a closer look

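Among groups of 4 libraries, the control CB group was checked for a library far from the others, over the 10 genes and their sum, and chance flags about 1 in 20 such groups. Hsd17b3 stood at 5.02 CPM in MVHCTRL3 against 1.33 to 1.59 in the other controls. Klk1b27 stood at 0.578 CPM in MCTRL5, which is 8 counts, and at 0 in the other controls. A count of 0 allows up to 0.684 CPM in MVHCTRL3, so MCTRL5 is not shown to stand apart. With all other libraries at 0 the flag is raised by any count, so the rate of 1 in 20 does not hold for Klk1b27.

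For 10 genes outside the members, the difference between cKO and control was not the same in RS and Spc by the interaction of genotype and stage. Beside the members, only genes named for a large change in RS were looked at. The interaction uses the same RS libraries, so the passing of genes named in this way is no support. Of all 18171 genes tested, 19.0% passed as higher and 24.1% as lower. Of the steroid partners, Tspo had an interaction of 2.34, Cyb5a of 1.27 and Lipe of -2.0 on the log2 scale. Of the cholesterol genes, Cyp51 had -1.36, Fdps -1.60 and Lss 0.53. Of the kallikreins, Klk1b5 had -4.35, Klk1b4 -3.54, Klk1b26 -3.49 and Klk1b9 -2.81; in cKO RS Klk1b5 had 2, 0 and 5 counts, Klk1b4 0, 0 and 5 and Klk1b26 18, 4 and 11. Lipe and these kallikreins were higher in control RS than in control Spc and lower in cKO than in control RS. Of the 10 Leydig cell genes, 0 passed the same test by edgeR, 4 by DESeq2 and 7 with library size in place of TMM.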

How the results depend on the processing

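No direction of any of the 10 genes reversed in any comparison under DESeq2, other scalings, no count minimum, elements included, transcript sums, the replicate block or a library left out; over these, 706 values kept their side of the threshold, 46 lost it and 35 gained it. With DESeq2 the genes passing as higher in Spc were 10 in place of 5, and for the interaction 4 in place of 0; library size in place of TMM gave 7 for the interaction. Leaving out 1 library gave 0 to 9 passing in Spc and 0 to 8 past 1.5 as well, 4 to 7 in CB by either count, 0 to 10 in the cKO from Spc to RS by either count, and 0 to 7 for the interaction; in RS and from Spc to RS in controls, the 5 genes that met the count minimum in both groups passed each time. Where a left-out library left a group of 2, the spread was still estimated from both groups. Pairing by number was not shown: in the cKO the deviations of Spc and RS libraries 2 and 3 correlated with those of the same number (0.61 and 0.34) and those of number 1 did not (-0.07), the other correlations ran from -0.3 to 0.36, and every pair was above 0.1 in none of the comparisons. With the replicate block 4 genes passed in Spc, 9 in RS, 10 in controls and 10 in place of 9 in the cKO from Spc to RS, where Hsd3b1 came to -2.43 (SE 0.30, adjusted p = 0.00054), and 0 for the interaction. Of these, 4 in RS, 5 in controls and Lhcgr in the cKO met the count minimum only in the group where they were high. The passing of those genes is no support for a difference. In CB, a block by the column numbers, of which 2 and 3 are in both groups, passed 7 of 7, with 5 past 1.5 and values from 1.29 to 2.56. Over all genes, 4879 passed in Spc, and 2042 to 4234 with 1 library left out, the lowest without cKO library 1. Likewise 3064 passed in CB without the controls MVHCTRL2 and MVHCTRL3, a choice made after seeing the data, against 5136 with them. Low counts limit the values in control RS and CB.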
